A study of Arabidopsis thaliana and Hordeum vulgare and Setaria italica with 13 samples.

Results

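The mature tRNAs of Arabidopsis thaliana seedlings, read by YAMAT-seq, were set against the share of each anticodon in tRNA-seq of the same species. All 143 tRNA sequences listed for the A. thaliana YAMAT-seq library were taken, of 532 sequences listed over the 5 YAMAT-seq libraries of the study, and their reads were summed by the anticodon at the end of each sequence's name. These gave 47 families, a family being the tRNAs of 1 amino acid and 1 anticodon, written in DNA letters (GlyGCC). Isodecoders are different tRNA sequences within a family.

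The study sequenced tRNAs from seedlings of several plant species with both assays. The A. thaliana plants were grown on soil for 10 days at 23 ºC under a day of 16 h light and 8 h dark, and no mutation, transgene or treatment is named for them. YAMAT-seq ligates a Y-shaped adapter to the free ends of full-length tRNAs that end in CCA, with 12 cycles of PCR after reverse transcription. For tRNA-seq, RNA treated with a kit for tRNA fragments was made into a small RNA library. There was 1 YAMAT-seq library, labelled seedling, and tRNA-seq had 1 library labelled leaf and 1 labelled root. The leaf and root values were equal in 52 of 52 families, so 1 column was used and no tissue can be given to it. The tissue label could not be checked against marker genes, since both tables hold tRNAs alone. The YAMAT-seq library held 13439654 reads, and the depth behind the tRNA-seq percentages is unknown. With 1 library a side, nothing below was tested, and a difference between the assays cannot be told apart from a difference between the plants or the library preparations.

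A tRNA carries an amino acid to the ribosome and reads the codon with its anticodon. Plant cells make tRNAs from nuclear, plastid and mitochondrial genes, and plant mitochondria also use tRNAs of plastid descent and tRNAs imported from the cytosol. The CCA at the 3′ end, where the amino acid is attached, is added after transcription of nuclear tRNAs, and the base before it, called the discriminator, helps the charging enzymes to recognise their tRNA. Modified bases in a tRNA can stop or alter reverse transcription.

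The 10 sequences with the most reads are printed because they hold 96.4% of the library. Capitals mark the anticodon, and the last 3 bases are the CCA end, which is not in the gene. Positions were found by exact match of each sequence, without its CCA, to the TAIR10.1 genome.
at_tR90_GlyGCC: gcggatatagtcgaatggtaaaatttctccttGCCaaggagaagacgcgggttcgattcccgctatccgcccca
at_tR70_GlnTTG: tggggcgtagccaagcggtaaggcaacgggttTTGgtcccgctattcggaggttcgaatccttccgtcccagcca
at_tR180_SerGCT: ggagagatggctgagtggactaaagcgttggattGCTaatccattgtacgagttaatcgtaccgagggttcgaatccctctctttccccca
at_tR48_AspGTC: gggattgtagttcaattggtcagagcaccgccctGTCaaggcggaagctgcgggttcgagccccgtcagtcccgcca
at_tR204_TrpCCA: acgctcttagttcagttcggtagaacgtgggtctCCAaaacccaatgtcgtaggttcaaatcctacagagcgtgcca
at_tR80_GluTTC: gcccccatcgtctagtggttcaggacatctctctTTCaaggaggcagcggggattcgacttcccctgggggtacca
at_tR182_SerGGA: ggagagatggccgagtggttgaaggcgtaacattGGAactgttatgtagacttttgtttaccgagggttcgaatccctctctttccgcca
at_tR93_GlyTCC: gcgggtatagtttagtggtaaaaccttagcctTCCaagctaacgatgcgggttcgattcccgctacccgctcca
at_tR62_CysGCA: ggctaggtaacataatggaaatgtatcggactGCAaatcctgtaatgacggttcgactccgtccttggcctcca
at_tR98_HisGTG: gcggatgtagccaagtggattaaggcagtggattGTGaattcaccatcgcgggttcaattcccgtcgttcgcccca
The GlyGCC sequence matched the plastid genome at 36490 to 36560 on the forward strand, in the tRNA gene ArthCt116. The GlnTTG sequence matched plastid positions 6616 to 6687 on the reverse strand (ArthCt090). The SerGCT sequence matched plastid positions 7785 to 7872 on the reverse strand, where the annotation places ArthCt091 on the forward strand. AspGTC (29801 to 29874, ArthCt095), TrpCCA (66229 to 66302, ArthCt105), GluTTC (30466 to 30538, ArthCt097) and HisGTG (4 to 76, ArthCt088) lay on the reverse strand of the plastid genome. SerGGA (44827 to 44913, ArthCt125) lay on its forward strand. The CysGCA sequence matched mitochondrial positions 42546 to 42616 on the forward strand (DA397_mgt04) and 1 nuclear place. The GlyTCC sequence had no exact match and was 1 edit from the plastid gene ArthCt092. That edit is a difference in length, 71 bases without CCA against 72 in the annotated tRNA, and not an exchanged base. A match in separate pieces of the plastid genome was sought with long pieces only.

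The sequences that led GlnCTG and MetCAT are printed because these families are among the 4 largest in tRNA-seq and have few YAMAT-seq reads. Capitals again mark the anticodon.
at_tR65_GlnCTG: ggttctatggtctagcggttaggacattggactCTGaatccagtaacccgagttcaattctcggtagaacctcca
at_tR141_MetCAT: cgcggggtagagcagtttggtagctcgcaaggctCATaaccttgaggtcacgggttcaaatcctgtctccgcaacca
The GlnCTG sequence matched 4 nuclear places, 1 of them AT2G16240 on the forward strand of chromosome 2, at 7039094 to 7039165. The MetCAT sequence matched the plastid genome at 36704 to 36777 on the reverse strand (ArthCt099).

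The YAMAT-seq reads were concentrated in few tRNAs. GlyGCC held 55.3% of all reads (7433551 reads, 95% Clopper-Pearson interval 55.28% to 55.34%), GlnTTG 22.0% (2952630 reads) and SerGCT 9.94% (1336267 reads). These intervals cover counting error only, and reads from PCR without molecular identifiers are not independent molecules. AspGTC followed with 4.39%, TrpCCA with 1.83%, GluTTC with 1.61% and SerGGA with 1.18%. No other family passed 1%. GlyTCC stood at 0.705%, CysGCA at 0.676% and HisGTG at 0.584%. To reach 90% of the total, 4 families were enough in YAMAT-seq, while 19 were needed in tRNA-seq. To reach 99%, 13 and 35 families were needed. At the other end, 41 of the 143 sequences had fewer than 10 reads and held 199 reads together.

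The same families had a flatter distribution in tRNA-seq, led by other anticodons. GlnCTG was the largest with 21.4%, followed by ProTGG with 9.67%, GluTTC with 8.64%, MetCAT with 7.71% and LeuTAG with 6.003%. GlyGCC was at 5.21%, HisGTG at 4.83%, SerTGA at 4.39%, GlnTTG at 3.16% and LeuCAA at 3.03%. GlyGCC, GlnTTG, GluTTC and HisGTG were thus among the 10 largest families of both assays. The tRNA-seq table lists 52 families, 47 of them above 0, and its values sum to 100.47.

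Set side by side, most families took a smaller share of YAMAT-seq than of tRNA-seq, and the 5 largest YAMAT-seq families took a larger one. A family was called higher or lower when its YAMAT-seq share plus 0.01% differed at least 4-fold from its tRNA-seq share plus 0.01%. By this rule 3 of 52 families were higher (5.77%) and 33 were lower (63.5%), and 16 lay within 4-fold. Those 16 include 4 families at 0 in tRNA-seq and not listed in YAMAT-seq, and AlaCGC, with 4 reads against 0. They also include IleAAT and ValCAC, both 1995-fold lower by the plain ratio of shares, and ProCGG, 26.9-fold lower. The 0.01% added to both sides places these families within 4-fold. The median log2 ratio over the 52 families was -2.98. Spearman's rho between the shares was 0.663 over the 45 families above 0 in both assays. These points share 1 library and its total on each side, so rho is a description. Because shares sum to a fixed total, a large family lowers the share of every other family: without GlyGCC in either assay the median log2 ratio was -2.36. In that setting AspGTC (log2 ratio 2.47) and CysGCA (2.09) also passed 4-fold higher, and IleAAT and ValCAC (both -2.04) 4-fold lower. The 6 families ArgTCT (-1.87), GluCTC (-1.08), GluTTC (-1.33), HisGTG (-1.95), LysTTT (-1.72) and TyrGTA (-1.45) were no longer 4-fold lower.

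The 3 higher families were also the 3 largest in YAMAT-seq. GlyGCC, a glycine tRNA, was 10.6-fold higher (55.3% against 5.21%, log2 ratio 3.41). GlnTTG, a glutamine tRNA with plastid, mitochondrial and nuclear genes, was 6.95-fold higher (22.0% against 3.16%, log2 ratio 2.79). SerGCT, 1 of the serine tRNAs with a long variable arm, was 5.60-fold higher (9.94% against 1.78%, log2 ratio 2.48). A further group lay above its tRNA-seq share without reaching 4-fold. AspGTC had 4.39% against 1.68%, CysGCA 0.676% against 0.332% and TrpCCA 1.83% against 1.13%. SerGGA was close to its tRNA-seq share, with 1.18% against 1.30%. AlaTGC (0.148% against 0.445%) and GlyTCC (0.705% against 2.64%) were lower by less than 4-fold, and GluCTC (0.462% against 2.09%) by 4.52-fold.

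**Figure D1:**
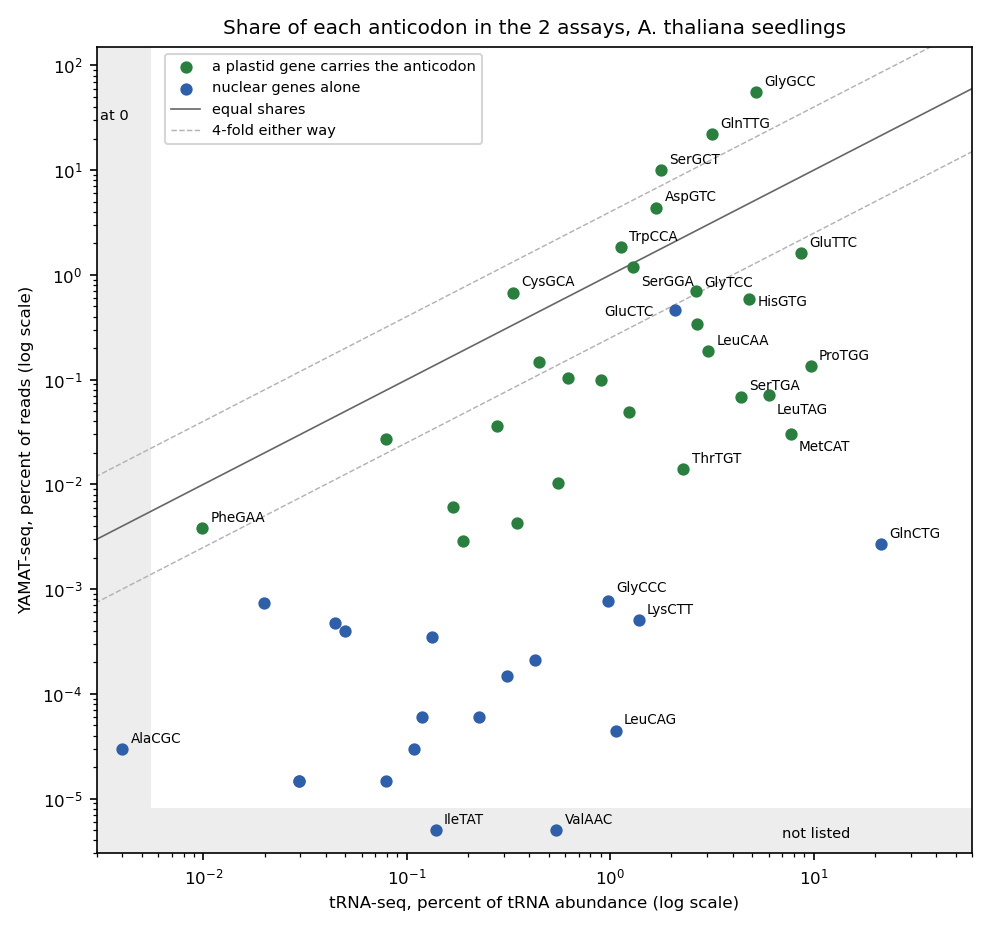
Each point is 1 anticodon family of A. thaliana, with its percent of tRNA abundance in tRNA-seq on the horizontal axis and its percent of YAMAT-seq reads on the vertical axis, both on log scales, with 1 library a side and no error on the tRNA-seq values. GlyGCC, GlnTTG and SerGCT lie above the upper dashed line of 4-fold. With 0.01% added to both shares, 33 families are at least 4-fold lower. The dashed lines are drawn on plain shares, so IleAAT, ValCAC and ProCGG also lie below the lower one. The grey bands hold the families that are listed at 0 or are not listed in 1 assay.

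With 0.01% added to both shares, the family furthest below its tRNA-seq share was GlnCTG, the glutamine tRNA with nuclear genes alone. It had 21.4% in tRNA-seq and 360 reads in YAMAT-seq, which is 0.00268% (0.00241% to 0.00297%), a log2 ratio of -10.72. MetCAT, which holds initiator and elongator methionine tRNAs, had 7.71% in tRNA-seq and 4081 reads (0.0304%, log2 ratio -7.58). ProTGG had 9.67% against 0.136% (log2 ratio -6.06), LeuTAG 6.003% against 0.0711% (-6.21) and SerTGA 4.39% against 0.0688% (-5.80). GlnCTG, MetCAT, ProTGG and LeuTAG were therefore among the 5 largest families of tRNA-seq and ranked from 15 to 30 in YAMAT-seq. Smaller families stood equally far apart. ThrTGT had 2.29% against 0.0140% (log2 ratio -6.58), and LysCTT had 1.38% against 68 reads (-7.05). GlyCCC had 0.980% against 104 reads (-6.52), and LeuCAG had 1.06% against 6 reads (-6.74). For families this near 0 in YAMAT-seq the size and order of the log2 ratios depend on the 0.01% added to both sides. By the plain ratio of shares LeuCAG was 23835-fold lower and GlnCTG 7993-fold, and ValAAC and IleTAT have no reads listed.

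Of the other large tRNA-seq families, GluTTC was 5.37-fold lower in YAMAT-seq (1.61% against 8.64%), HisGTG 8.28-fold lower (0.584% against 4.83%) and LeuCAA 16.3-fold lower (0.187% against 3.03%). ArgTCT was 7.86-fold lower (0.339% against 2.67%).

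A few families were seen by 1 assay alone. ValAAC (0.544%) and IleTAT (0.139%) were above 0 in tRNA-seq and are not listed in YAMAT-seq, while AlaCGC was listed at 0 in tRNA-seq and had 4 YAMAT-seq reads. AlaAGC, AspATC, CysACA and ProGGG were at 0 in tRNA-seq and not listed in YAMAT-seq. Of these 4, AlaAGC has 16 annotated nuclear genes and the others have none. IleCAT, whose genes carry the same anticodon letters as methionine tRNAs, had 230 YAMAT-seq reads and has no row of its own in the tRNA-seq table. The YAMAT-seq file lists no sequence without a read, and the sources used here do not say whether its reference held the others.

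By amino acid, glycine tRNAs made up 56.0% of YAMAT-seq reads and 8.83% of tRNA-seq. Glutamine had 22.0% against 24.6%, with GlnTTG the larger of them in YAMAT-seq and GlnCTG in tRNA-seq. Serine had 11.2% against 8.20%. Leucine had 0.358% against 11.1%, proline 0.137% against 9.82%, and glutamate 2.07% against 10.7%. Phenylalanine was the smallest amino acid in tRNA-seq, at 0.00990%, with 0.00382% (513 reads) in YAMAT-seq.

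Grouped by the kind of residue, the families did not all shift alike, though lower families were the more numerous in most lists. The branched-chain residues (isoleucine, leucine and valine) had 0 families higher and 10 of 12 lower by 4-fold, with a median log2 ratio of -3.95. The basic residues (arginine, lysine and histidine) had 8 of 8 lower, with a median of -3.25. These shares stand beside 63.5% lower and a median of -2.98 over all 52 families. The aromatic residues had 1 of 3 lower and a median of -0.53. That median is PheGAA, whose shares in both assays are below the 0.01% added to them. Glycine and alanine had 1 of 6 higher and 1 of 6 lower, with a median of -0.77. Here AlaAGC and AlaCGC are at 0 in tRNA-seq with 0 and 4 reads. Their log2 ratios of 0 and 0.004 come from the 0.01% added and raise the median. Aspartate, glutamate, asparagine and glutamine had 1 of 7 higher and 4 of 7 lower, with a median of -2.15. Among these, AspATC is at 0 in tRNA-seq and not listed in YAMAT-seq. Its log2 ratio of 0 also comes from the 0.01% added and raises the median.

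Grouped by structure, the leucine and serine tRNAs, which carry a long variable arm, had 1 of 10 families higher and 8 of 10 lower (median log2 ratio -4.47), beside 5.77% higher and 63.5% lower over all 52 families (median -2.98). Some families have A as the first anticodon base, a base that is usually edited to inosine in the mature tRNA. The list used holds 8 of them, of which 6 were lower and 0 higher (median -3.57), with 912 reads in all. Of these reads, 773 were of the plastid ArgACG sequence and 139 were of nuclear sequences. AlaAGC is in the list too, although it is at 0 in tRNA-seq and not listed in YAMAT-seq. With AspATC and CysACA, which are likewise at 0 and not listed, 6 of 10 were lower (median -3.31). Families with G or C at both the second and the third anticodon position had 1 of 13 higher and 6 of 13 lower (median -1.89). They are the glycine, alanine and proline families with ArgACG, ArgCCG and ArgTCG. Among them AlaAGC, AlaCGC and ProGGG are at 0 in tRNA-seq.

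Nearly all YAMAT-seq reads came from sequences encoded in the plastid. The 29 sequences with an exact match in the plastid genome, some of them to the joined exons of a gene, held 12922471 reads, or 96.2%. The 18 sequences with a mitochondrial match held 1.81% (243104 reads), and the 94 with a nuclear match alone held 1.35% (181928 reads). The other 2 sequences had no exact match and held 0.686%, nearly all of it in the GlyTCC sequence that was 1 edit from a plastid gene. A. thaliana chromosome 2 is known to carry a large insertion of mitochondrial DNA. Of the 18 mitochondrial sequences, 15 also match a nuclear place, and their 234557 reads cannot be assigned to 1 of the genomes. Without them, 0.0636% of reads came from sequences found in the mitochondrial genome alone. The tRNA-seq table gives no genome of origin. In bulk RNA of seedlings, fewer cells of a type and less RNA per cell cannot be told apart.

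The plastid set was close to complete. Of 30 distinct sequences among 37 annotated plastid tRNA genes, 29 were listed exactly, and the remaining gene, for GlyTCC, was the one at 1 edit. Their reads ran from 218, for plastid IleCAT, to 7431104, for GlyGCC, with a median of 4674. Thus plastid tRNAs that are all encoded in 1 genome differed by more than 4 orders of magnitude in reads. Of 19 distinct mitochondrial sequences, 16 were listed, and the missing 3 were 2 methionine genes and 1 tyrosine gene. The nuclear set was the least complete: 95 of 196 distinct annotated sequences were listed, 1 of them a TyrGTA sequence that also matches the mitochondrial genome and is counted there. Of the 94 nuclear sequences, 79 had fewer than 100 reads and 9 had more than 1000.

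**Figure D2:**
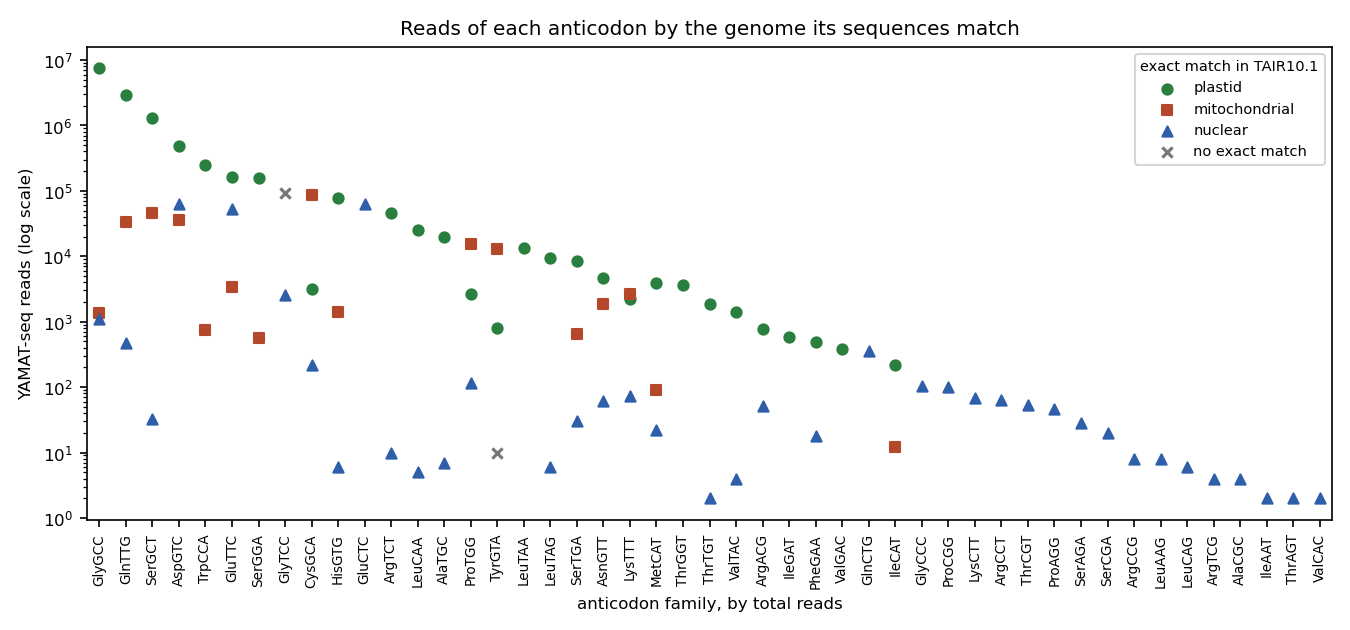
Each column is 1 of the 47 anticodon families, ordered by total YAMAT-seq reads, and each symbol gives the reads of its plastid, mitochondrial, nuclear or unmatched sequences on a log scale, from 1 library. Plastid symbols run from 218 reads in IleCAT to 7431104 in GlyGCC, and nuclear symbols stand at 52092 reads or more in AspGTC, GluCTC and GluTTC and at 2544 or fewer in the other families.

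Families with no plastid gene were almost absent from YAMAT-seq except for GluCTC. The 24 such families of the tRNA-seq table summed to 29.2% there and to 0.468% of YAMAT-seq reads, of which GluCTC, a glutamate tRNA, made up 0.462%. Of these 24, 0 were higher and 16 were lower, and their median log2 ratio was -3.36, beside 5.77% higher, 63.5% lower and a median of -2.98 over all 52 families. The 28 families with a plastid gene summed to 71.3% of tRNA-seq and 99.5% of YAMAT-seq, with 3 higher, 17 lower and a median of -2.78. With 0.01% added to both shares, the share of lower families was near that of all families in both classes. All the families at 0 in tRNA-seq, which cannot be called lower, are among the 24: AlaAGC, AlaCGC, AspATC, CysACA and ProGGG. IleAAT, ValCAC and ProCGG are also among the 24 and are within 4-fold only through the 0.01% added. By the plain ratio of shares they were 1995-, 1995- and 26.9-fold lower. The likeness of the classes thus depends on how these families are counted. MetCAT, ThrTGT, LeuTAG, ProTGG and SerTGA, which each have a plastid gene, were 254-, 163-, 84.4-, 71.3- and 63.7-fold lower by the plain ratio of shares.

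In 20 families both organelle and nuclear sequences had reads, and in each of these the organelle sequences held the larger part. The organelle share had a median of 99.7% and was above 99% in 15 families. It was lowest in GluTTC (75.9%) and AspGTC (89.5%). In SerGCT it was highest, since 32 of 1336267 reads were nuclear. In GlyGCC, 1088 of 7433551 reads were nuclear, although 22 annotated nuclear genes carry this anticodon.

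The nuclear reads themselves lay in 3 acidic-residue families. AspGTC had 62138 nuclear reads, GluCTC 62060 and GluTTC 52092, together 96.9% of all nuclear reads. These families have 48 of the 608 nuclear genes used and 12.4% of tRNA-seq. The other nuclear families shared 5638 reads, led by GlyTCC with 2544, GlyGCC with 1088, GlnTTG with 466 and GlnCTG with 360. When the YAMAT-seq shares were taken within nuclear reads alone, AspGTC, GluCTC and GluTTC lay above their tRNA-seq shares (log2 ratios 4.34, 4.02 and 1.73), and GlyGCC, GlnTTG and SerGCT lay below theirs (-3.10, -3.58 and -6.02). These ratios set unlike totals side by side. The tRNA-seq total also holds families with no nuclear gene among those used, such as SerGGA (1.30%) and IleGAT (0.346%).

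Nuclear reads did not follow the number of nuclear genes. Across 46 families Spearman's rho between annotated nuclear genes and nuclear reads was 0.200, and across 45 families rho between genes and tRNA-seq percent was 0.183. TyrGTA, with 74 genes the largest nuclear family, had no listed sequence with a nuclear match alone. The nearest was a sequence of 10 reads at 1 edit from AT1G49460. ProTGG, with 44 genes, had 115 nuclear reads. SerAGA, with 37 genes, had 28 reads, and LysCTT, with 17, had 68. Within the 21 families that have nuclear genes alone, the tRNA-seq percent and the YAMAT-seq reads had a rho of 0.448. Of the 47 families with nuclear genes, 8 had no sequence listed with a nuclear match alone: TyrGTA, AlaAGC, ValAAC, TrpCCA, LeuTAA, IleTAT, IleCAT and GlyACC. GlyACC has 1 gene and is in neither deposited table, so it is not among the 46 families above.

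**Figure D3:**
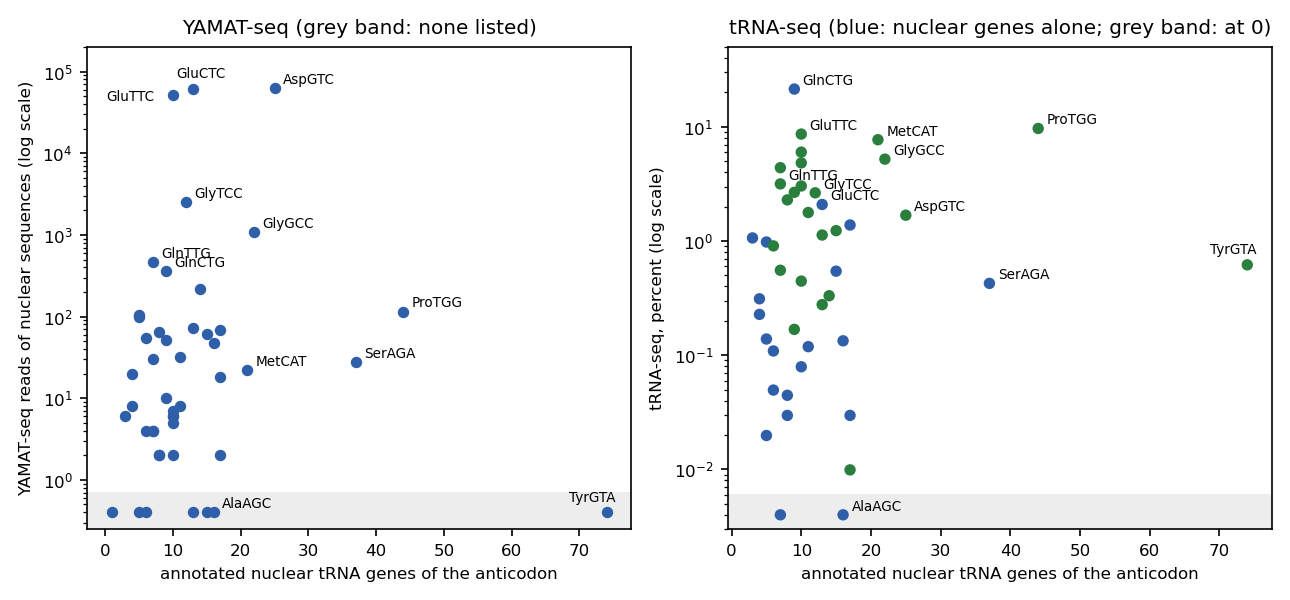
Each point is 1 family with nuclear tRNA genes; the horizontal axis is its number of annotated genes, and the vertical axes are its nuclear YAMAT-seq reads (left) and its tRNA-seq percent (right), on log scales, from 1 library each. AspGTC, GluCTC and GluTTC stand at 52092 reads or more with 25, 13 and 10 genes, while TyrGTA with 74 genes has none and ProTGG with 44 genes has 115.

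The nuclear AspGTC reads came from 1 sequence, printed here because it is the nuclear tRNA with the most reads. Capitals mark the anticodon.
at_tR44_AspGTC: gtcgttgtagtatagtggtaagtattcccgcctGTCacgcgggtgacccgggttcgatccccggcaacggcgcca
It had 62129 reads and matched 21 nuclear places, 1 of them AT1G03515 on the forward strand of chromosome 1 at 877648 to 877719. That is 2959 reads per place. The only other nuclear AspGTC sequence, at 1 substitution (A46G, counted from 1 at the 5′ end), had 9 reads. The smaller count of such a pair is uncertain, since 1 wrong base in a read would move it from the larger sequence to the smaller, and the sources used here do not say how reads were assigned.

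GluCTC has no organelle gene, so its 4 isodecoders show how reads spread among nuclear copies. Capitals mark the positions at which the 4 differ.
at_tR72_GluCTC: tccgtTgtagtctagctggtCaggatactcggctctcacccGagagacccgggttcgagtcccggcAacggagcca
at_tR73_GluCTC: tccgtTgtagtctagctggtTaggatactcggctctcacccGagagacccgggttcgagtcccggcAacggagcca
at_tR74_GluCTC: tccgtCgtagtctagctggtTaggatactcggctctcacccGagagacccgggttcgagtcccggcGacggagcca
at_tR75_GluCTC: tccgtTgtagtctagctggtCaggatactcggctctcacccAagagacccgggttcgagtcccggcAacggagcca
The first, at_tR72_GluCTC, had 57930 reads over 9 places, or 6437 per place. It matches AT1G29210, on the reverse strand of chromosome 1 at 10207306 to 10207378. The second differed from it by C21T and had 2868 reads from its 1 place (AT2G38030, chromosome 2, 15916817 to 15916889, forward strand). The third differed from the second by T6C and A67G, which exchange both bases of 1 pair of the acceptor stem, and had 1140 reads over 2 places. The fourth differed from the first by G42A and had 122 reads from 1 place. The order of reads followed the number of places except for the second and the third, and reads per place ranged from 122 to 6437. The first and the fourth, and the first and the second, are 1 base apart and are uncertain in the sense given above.

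GluTTC held 4 nuclear isodecoders that all had 4404 reads or more, and they differ from each other in the acceptor stem. Capitals mark the positions at which the 4 differ.
at_tR77_GluTTC: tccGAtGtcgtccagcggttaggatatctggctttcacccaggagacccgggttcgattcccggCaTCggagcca
at_tR76_GluTTC: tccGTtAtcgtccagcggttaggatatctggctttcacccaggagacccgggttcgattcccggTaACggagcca
at_tR79_GluTTC: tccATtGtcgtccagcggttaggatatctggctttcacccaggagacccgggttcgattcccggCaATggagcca
at_tR78_GluTTC: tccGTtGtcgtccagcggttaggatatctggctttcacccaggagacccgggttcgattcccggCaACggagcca
Their reads were 28183 over 6 places, 14514 over 2, 4991 over 1 and 4404 over 1. Per place this is 4697, 7257, 4991 and 4404 reads, a range of less than 2-fold. Relative to at_tR78_GluTTC as the second sequence of each pair, at_tR77_GluTTC differs by A5T and T67A, at_tR76_GluTTC by A7G and T65C, and at_tR79_GluTTC by A4G and T68C. Each is the exchange of 1 whole base pair of the acceptor stem. Since 2 bases separate each of these pairs, 1 wrong base does not turn a read of one into a read of the other. They match AT1G09110 (chromosome 1, 2939417 to 2939488, forward), AT1G75970 (chromosome 1, 28519985 to 28520056, reverse), AT3G50665 (chromosome 3, 18826040 to 18826111, forward) and AT3G05525 (chromosome 3, 1601338 to 1601409, reverse), in the order printed.

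Exchange of a whole base pair of the acceptor stem was also found among nuclear isodecoders of other families. There were 122 pairs of listed nuclear sequences within a family, with a median of 4 edits, and 13 pairs were 1 edit apart. Of the 29 pairs that differed by exactly 2 substitutions, 16 differed by 1 base pair of the acceptor stem, in 11 families. Some sequences are in more than 1 of these pairs, some have few reads, and no expected count was computed. Examples are at_tR20_ArgCCT (48 reads) and at_tR23_ArgCCT (16 reads), which differ by C4T and G69A, and at_tR154_ProTGG (61 reads) and at_tR156_ProTGG (54 reads), which differ by A5G and T67C. The first ProTGG sequence matches 34 nuclear places and the second 8.

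Outside the Asp and Glu families, reads per nuclear place were 212 for at_tR92_GlyTCC (2544 reads over 12 places), 128 for at_tR86_GlyGCC (255 over 2), 72.8 for at_tR68_GlnTTG (437 over 6), 52.6 for at_tR84_GlyGCC (737 over 14) and 50.3 for at_tR65_GlnCTG (201 over 4).

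Within most families 1 sequence held nearly all the reads. Of the 47 families, 11 had 1 sequence and 36 had 2 or more, up to 10 in CysGCA. Among the 36, the leading sequence held a median of 93.0% of the family's reads (96.6% over all 47), above 90% in 20 families and above 99% in 9. In 6 families it held less than 60%. In the 25 families whose sequences came from more than 1 origin, the leader was plastid in 20 and mitochondrial in 4 (CysGCA, LysTTT, ProTGG and TyrGTA). It was nuclear in 0, and in GlyTCC it was the sequence without an exact match.

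The leading plastid sequence was far ahead in the largest families. In GlyGCC it had 7431104 reads, the mitochondrial sequence 1359 and the 6 nuclear ones from 2 to 737. In GlnTTG the plastid sequence had 2919301 reads and the mitochondrial one 32863 (1.11% of the family). In SerGCT the values were 1290264 and 45971 (3.44%), and in HisGTG 77015 and 1427 (1.82%). These second sequences were of mitochondrial origin in each of the 4 families. In GluTTC the second was nuclear: the plastid sequence had 160603 reads (74.3%) and at_tR77_GluTTC 28183 (13.0%). In GlyTCC the unmatched sequence had 92141 reads (97.3%) and the nuclear one 2544 (2.69%).

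In CysGCA, ProTGG and LysTTT the mitochondrial sequence led and the plastid one came second. In CysGCA they had 87470 and 3176 reads, and 8 nuclear sequences had from 3 to 47. In ProTGG they had 15442 (84.7%) and 2667 reads (14.6%). In LysTTT they had 2623 (53.5%) and 2209 reads (45.0%).

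Small nuclear families were divided more evenly but rest on few reads. GlnCTG had 5 isodecoders with 201, 49, 48, 38 and 24 reads, so its leader held 55.8% (95% interval 50.5% to 61.0%). ProCGG had 63 and 28 reads in its first 2 sequences, ThrCGT 42 and 12, LysCTT 60 and 8, SerAGA 23 and 5, and SerCGA 14 and 6. ProAGG had 21, 14 and 12. ArgCCG had 4 and 4, and AlaCGC had 2 and 2. In these families the intervals of the leader's share are wide, from 15.7% to 84.3% in ArgCCG.

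**Figure D4:**
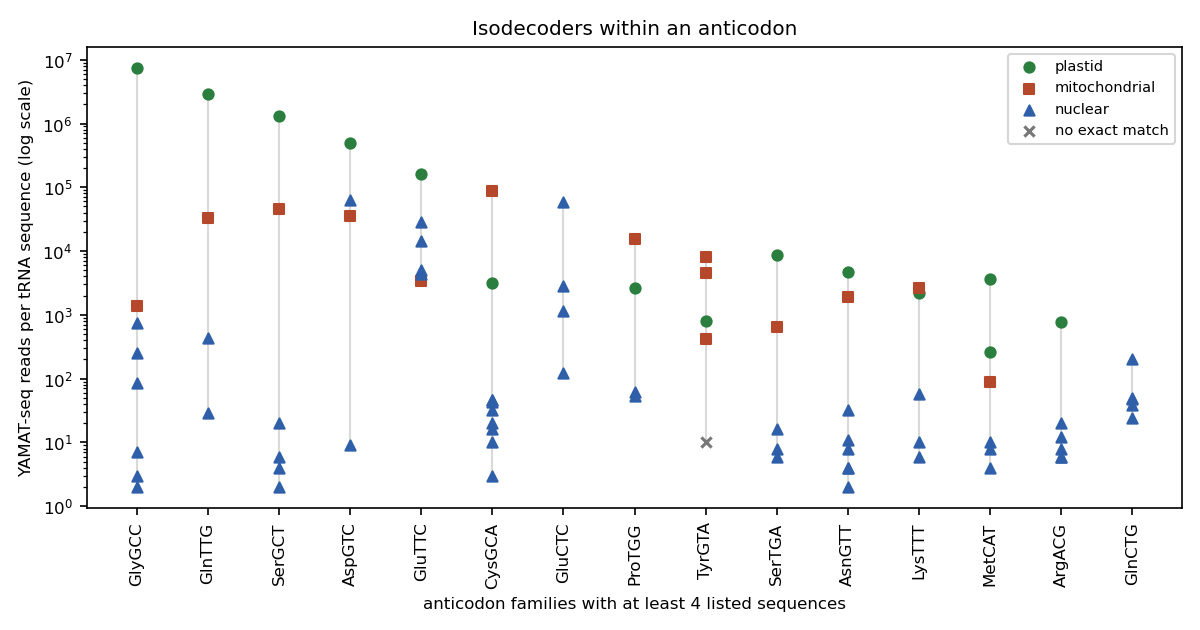
Each symbol is 1 tRNA sequence, with its YAMAT-seq reads on a log scale, in the 15 families with at least 4 listed sequences, and its shape gives the genome it matches. In GlyGCC the plastid sequence stands at 7431104 reads and the others at 1359 or fewer, while the 4 nuclear GluTTC sequences lie between 4404 and 28183.

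Plastid and mitochondrial tRNAs of the same anticodon could be compared in 19 pairs from 16 families. The plastid sequence had more reads in 14 pairs and the mitochondrial one in 5. Pairs differed by 1 to 39 edits, and 6 pairs were within 10 edits. In A. thaliana some mitochondrial tRNA genes descend from plastid DNA, and 3 pairs differ by 1 base. They are printed to show how little separates them, with the differing base in capitals and the plastid sequence first.
at_tR48_AspGTC: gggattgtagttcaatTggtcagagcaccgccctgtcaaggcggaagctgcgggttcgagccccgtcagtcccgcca
at_tR49_AspGTC: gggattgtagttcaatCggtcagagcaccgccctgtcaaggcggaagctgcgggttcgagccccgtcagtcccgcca
at_tR204_TrpCCA: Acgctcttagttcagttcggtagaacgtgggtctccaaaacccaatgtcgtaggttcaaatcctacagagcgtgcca
at_tR205_TrpCCA: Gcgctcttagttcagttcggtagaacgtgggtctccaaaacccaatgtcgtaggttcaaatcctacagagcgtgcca
at_tR41_AsnGTT: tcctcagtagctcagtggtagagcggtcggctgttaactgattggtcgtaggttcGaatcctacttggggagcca
at_tR42_AsnGTT: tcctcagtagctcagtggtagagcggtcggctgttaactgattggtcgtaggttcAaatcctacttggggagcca
Positions count from 1 at the 5′ end and the plastid base comes first. AspGTC differed by T17C and had 491783 plastid and 35496 mitochondrial reads, 13.9-fold apart. TrpCCA differed by A1G, at the first base, with 245275 and 753 reads, 326-fold apart. AsnGTT differed by G56A, with 4674 and 1872 reads, 2.50-fold apart. The ratio between plastid and mitochondrial copies thus varied by more than 100-fold over pairs that are equally close. The mitochondrial genes lie at 274937 to 275010 on the reverse strand (DA397_mgt17, AspGTC), 298901 to 298974 on the forward strand (DA397_mgt19, TrpCCA) and 43544 to 43615 on the forward strand (DA397_mgt05, AsnGTT). Each of the 3 mitochondrial sequences also matches 1 nuclear place. With 1 base between the members of a pair, the smaller count is uncertain for the reason given for AspGTC.

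Among the more distant pairs the range was wider. HisGTG (3 edits) was 54.0-fold higher for the plastid sequence, SerGGA (4 edits) 279-fold and GlyGCC (22 edits) 5468-fold. CysGCA (30 edits) was 27.5-fold higher for the mitochondrial sequence and ProTGG (18 edits) 5.79-fold. MetCAT, with 2 plastid sequences of 3707 and 263 reads, had 89 mitochondrial reads.

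**Figure D5:**
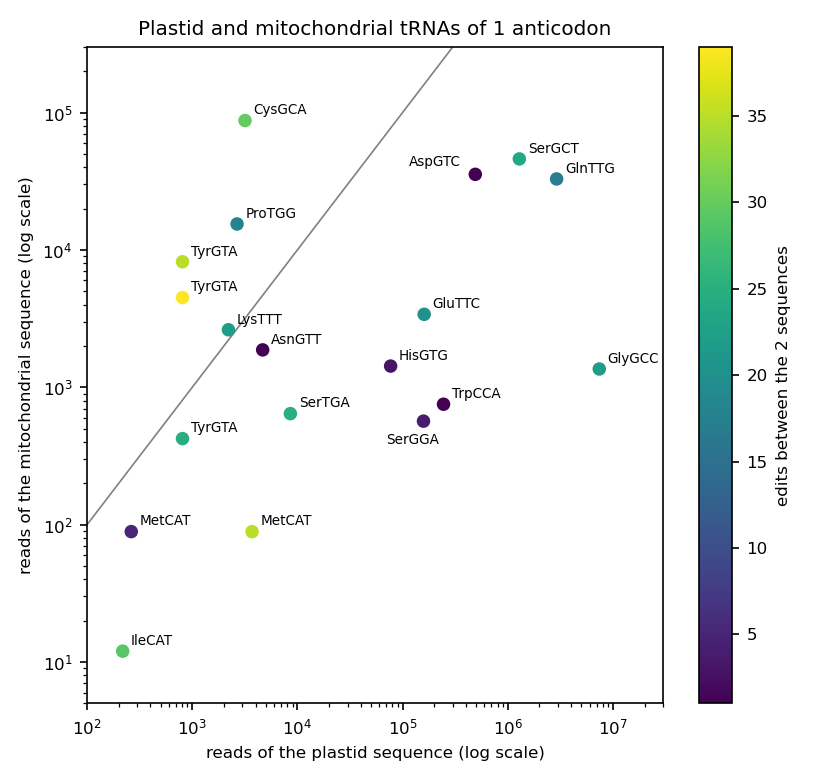
Each point is 1 pair of a plastid and a mitochondrial tRNA sequence with the same anticodon, with their reads on log axes, the line of equal reads, and a colour for the edits between them. Points below the line, 14 of 19, have more plastid reads, and CysGCA lies furthest above it with 87470 mitochondrial and 3176 plastid reads.

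The TyrGTA reads were spread over 4 organelle sequences. The leading sequences are printed because neither falls in an annotated mitochondrial tRNA gene. Capitals mark the anticodon.
at_tR220_TyrGTA: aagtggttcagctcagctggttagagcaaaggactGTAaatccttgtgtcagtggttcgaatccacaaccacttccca
at_tR222_TyrGTA: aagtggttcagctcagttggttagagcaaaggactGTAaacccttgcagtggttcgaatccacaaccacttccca
The first had 8199 reads (58.8% of the family) and matched 4 places, among them mitochondrial positions 41880 to 41954 on the forward strand, where no tRNA gene is annotated in TAIR10.1, and the annotated nuclear gene AT2G07753. The second had 4497 reads (32.3%) and matched 1 place, mitochondrial positions 358842 to 358913 on the forward strand, again with no annotated tRNA gene. The annotated mitochondrial sequence at_tR221_TyrGTA had 423 reads and the plastid one 808. Reads of the family therefore lay mainly in sequences without a mitochondrial annotation.

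The sequences that were read also differed in traits that the choice of members did not use. The discriminator base, just before CCA, was C in 14 of 143 sequences, and these held 65.6% of reads, of which plastid GlyGCC makes up the most. It was G in 54 sequences with 30.6% of reads, A in 51 with 2.33% and T in 24 with 1.48%. Among nuclear reads G accounted for 97.1%, over 42 of 94 sequences, since the leading Asp and Glu sequences end in G. Lengths without CCA ran from 71 to 92 bases. The 27 sequences of 80 bases or more held 11.6% of reads, most of it in plastid SerGCT. Of these 27, the 16 nuclear ones held 135 of 181928 nuclear reads (0.0742%).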

How the data were processed

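Per the file headers, the authors deposited YAMAT-seq as a read count for each tRNA sequence (CCA included) and tRNA-seq as a percent of total tRNA abundance for each anticodon. The submitters' processing notes name cutadapt and TAIR10. Not given in the sources used here are the aligner, the reference tRNAs, how reads with several matches were counted, and whether fragments enter the tRNA-seq percentages. Shares are those of cDNA, which ligation, modified bases and PCR can change.

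Counts were summed per anticodon, taken from the sequence names, and divided by the total of 13439654. Exact Clopper-Pearson 95% intervals cover counting error only. Assays were compared by log2 ratios of percent + 0.01, with 4-fold as the limit and no test, since each side has 1 library. The code for the ratios and for the place of the anticodon in a sequence was run on simulated data with known answers. That run checks the code and says nothing about the assays or the genome coordinates. Sequences without their last 3 bases were matched exactly to TAIR10.1 (RefSeq) to find coordinates, which the files do not hold. Where no unbroken match was found, the joined exons of the annotated tRNA genes were searched. This placed the plastid sequences of AlaTGC, LeuTAA, LysTTT, ValTAC and IleGAT. Where a sequence matched an organelle and the nucleus, it was counted as organellar. The gene counts use 608 of 625 annotated nuclear tRNA genes and omit the 17 that lie within 1 edit of an organelle tRNA. Edits are edlib distances. An acceptor pair is a pair of facing positions in the 7 outer bases of both ends.

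The members, lists and limits were chosen with earlier results of these data known. Every family may be named. Full values were given for the 10 largest families of either assay, the 10 largest rises and falls in log2 ratio with a mean of at least 0.1%, and the first and second isodecoder where the second has at least 1000 reads or 10% of its family. The tools were Python 3.11.15, pandas 2.3.3, numpy 2.4.6, scipy 1.17.1, edlib 1.3.9.post1 and matplotlib 3.10.9. Alternatives tried were other added percentages, a rescaled tRNA-seq total, GlyGCC left out, limits on reads and shares, nuclear reads alone, 2-fold and 10-fold limits, other rules of origin, and IleCAT counted with MetCAT, the last chosen after seeing the data.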

Additional observations from a re-analysis of the deposited data

How the results depend on the processing

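No paired analysis was possible because each side had 1 library, and for the same reason no replicate could be left out. The 33 lower families became 20 with 0.1% and 5 with 1% added to both shares, and stayed between 23 and 39 in the other settings tried. The 3 higher families became 5 at 2-fold and 1 at 10-fold, and were 2 to 4 otherwise. The median log2 ratio of -2.98 was -4.59, -1.40 and -0.27 with 0.001%, 0.1% and 1% added, -2.98 with tRNA-seq rescaled, -2.36 without GlyGCC, -3.95 in families whose mean reaches 0.1%, -3.06 in families above 0 in both assays and -3.89 within nuclear reads alone. Those nuclear reads also reversed GlnTTG (-3.58), GlyGCC (-3.10), SerGCT (-6.02), GluCTC (4.02) and GluTTC (1.73), the 5 reversals of a family past 4-fold among 332 values for 34 families. In 4 further values a family within 4-fold changed sign: CysGCA (-1.40), TrpCCA (-6.83) and ProCGG (1.11) within nuclear reads, and SerGGA (0.95) without GlyGCC. By construction the setting of nuclear reads alone leaves out the organelle reads, while the tRNA-seq shares keep their whole total. Spearman's rho was 0.736 with families at 0 kept. With sequences of at least 10 or 100 reads the median share of the leading sequence was 97.3% or 99.8%, and with at least 100 reads 61 sequences were left. The plastid share was 96.8% with at most 2 edits allowed, which takes in the GlyTCC sequence, and the mitochondrial share was 0.0636% with shared places counted apart. Families of a few reads have wide intervals, and the tRNA-seq depth is unknown, so its small percentages carry no stated error.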
